A study of Mus musculus with 4 samples.

Results

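The genes described here are 48 members of the Wnt signalling pathway, measured by RNA-seq in cultured mouse neural progenitors. They were taken by symbol from 21091 entries: every gene named as a Wnt ligand, a frizzled receptor (Fzd), a secreted frizzled-related protein (*Sfrp1* to *Sfrp5*), a Dickkopf antagonist (*Dkk1* to *Dkk4*) or an R-spondin (*Rspo1* to *Rspo4*), together with the coreceptors *Lrp5* and *Lrp6*, the TCF/LEF transcription factors *Lef1*, *Tcf7*, *Tcf7l1* and *Tcf7l2*, and the target gene *Axin2*. They comprise 19 ligands, 10 receptors, 2 coreceptors, 8 antagonists, 4 R-spondins, 4 transcription factors and 1 target.

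Wnt ligands are secreted lipid-modified proteins that bind frizzled receptors. In the canonical branch a frizzled and *Lrp5* or *Lrp6* act together, beta-catenin is spared from destruction and enters the nucleus, and there it works with TCF/LEF factors at target genes such as *Axin2*, itself a negative feedback component. Secreted frizzled-related proteins bind ligands outside the cell, *Dkk1* blocks the Lrp coreceptors, and R-spondins raise the amount of receptor at the cell surface. In the embryonic brain the pathway is best known for ligands made along the dorsal midline and the cortical hem, for the growth of progenitors and for the patterning of the midbrain and hindbrain.

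There were 4 groups with 1 library each. The C57BL/6 embryos were controls (CTL) or conditionally deleted for *Stat3* (*Stat3* cKO), and were taken on embryonic day 11 (E11) or 14 (E14). *Stat3* encodes a transcription factor activated by cytokine signals. The deletion was made by Cre under the rat Nestin promoter and enhancer, which acts in neural precursors, on a floxed *Stat3* allele. The labels and the methods on RNA-seq call the controls wild type, while the methods on animals give controls that carry Nestin-Cre and 1 floxed copy of *Stat3*. None of these sources says how many embryos made up a library. Embryonic brains were dissected and dissociated, and the cells were grown as floating neurospheres in serum-free medium with EGF and FGF for 3 days before RNA was isolated. Because no group had a replicate, there is no replicate error to hold the differences below against, and none was tested. In such bulk libraries, fewer cells of a type and less RNA per cell cannot be told apart.

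Levels are FPKM, fragments counted per kilobase of transcript and scaled to all mapped fragments, as deposited. Where 4 values follow each other, they stand for E11 CTL, then E11 *Stat3* cKO, then the CTL and the *Stat3* cKO library of E14. *Stat3* itself was listed at 7.41 FPKM (CTL) and 6.74 (*Stat3* cKO) at E11, and 27.6 and 9.55 at E14, so the E14 libraries differed at this gene and the E11 libraries hardly did. This is only a partial check of the labels, since the value covers the whole gene, the floxed part is a few of its exons, and the deletion is described as reached by E14. All 10 neural progenitor markers reached 1 FPKM in every library. Read from the smallest values, the relative depths ran from 0.84 to 1.07 with E14 *Stat3* cKO set to 1, while the entries at 0 ran from 330 in E11 CTL to 1589 in E14 CTL and the summed FPKM from 806587 to 1461770, both in *Stat3* cKO libraries (E11 and E14). The number of fragments is unknown, so no counting interval can be given. The Y-linked gene *Ddx3y* was at 0 FPKM in both E11 libraries, 0.0569 in E14 CTL and 25.1 in the *Stat3* cKO library of that stage. *Xist*, which is transcribed from the inactive X chromosome of female cells, stood at 46.9, 39.7, 13.6 and 0.037 FPKM. The E14 libraries thus also differed at genes that mark the sex of the embryos, and so did the *Stat3* cKO libraries of E11 and E14. None of the 48 members lies on the X or Y chromosome, and the part of this difference in their values was not tested.

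Promoters are shown for the members that differed most and had an entry in the RefSeq table of gene starts (GRCm38.p6): *Dkk2* and *Fzd10*, which differed at least 2-fold between genotypes, and *Lef1* and *Wnt8b*, which were among the members with the largest differences between stages. Each line gives the 250 bases before the start on the plus strand, 5′ to 3′, and capitals mark a TCF/LEF core motif, CTTTGA or CTTTGT on either strand. The windows are chr3:132085042-132085291 for *Dkk2*, chr5:128600856-128601105 for *Fzd10*, chr3:131110047-131110296 for the most upstream of the 4 starts of *Lef1*, and chr19:44493222-44493471 for *Wnt8b*.
Dkk2: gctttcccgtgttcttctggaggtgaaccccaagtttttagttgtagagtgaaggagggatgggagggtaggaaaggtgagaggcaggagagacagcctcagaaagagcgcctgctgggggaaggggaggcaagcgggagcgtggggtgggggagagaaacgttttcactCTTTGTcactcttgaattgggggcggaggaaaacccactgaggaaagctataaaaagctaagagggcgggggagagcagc
Fzd10: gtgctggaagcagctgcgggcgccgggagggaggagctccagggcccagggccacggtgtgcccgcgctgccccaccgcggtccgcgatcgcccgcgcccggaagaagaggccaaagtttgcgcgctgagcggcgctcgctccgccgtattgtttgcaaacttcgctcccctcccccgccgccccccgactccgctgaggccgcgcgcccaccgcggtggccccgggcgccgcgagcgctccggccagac
Lef1: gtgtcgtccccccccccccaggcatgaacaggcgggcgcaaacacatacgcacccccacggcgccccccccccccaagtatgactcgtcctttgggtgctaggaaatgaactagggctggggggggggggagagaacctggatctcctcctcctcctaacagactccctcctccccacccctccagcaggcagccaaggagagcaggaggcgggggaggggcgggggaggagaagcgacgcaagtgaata
Wnt8b: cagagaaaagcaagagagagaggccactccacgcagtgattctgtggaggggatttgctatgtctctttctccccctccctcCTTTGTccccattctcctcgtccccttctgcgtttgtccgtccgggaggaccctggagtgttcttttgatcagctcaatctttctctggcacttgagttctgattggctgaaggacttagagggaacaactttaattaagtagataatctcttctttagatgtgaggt
*Dkk2* has 1 match, which begins 80 bases before the start, and *Wnt8b* has 1 match, at 168 bases. The *Fzd10* window and the *Lef1* window shown hold neither spelling, while another of the 4 *Lef1* starts has 3 matches. Of the 48 members, 32 had an entry, with 40 starts in all, and 10 of these 40 windows (25%) held a TCF/LEF core, against 27.6% of the 32851 windows in the table. The STAT motif TTCNNNGAA, whose spelling can overlap CTTTGA, was found in 1 of the 40 windows (2.5%), at a start of *Wnt5b* whose window holds no TCF/LEF core, against 7.02% of all windows. A match of letters is not a measured binding site.

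At E11 the family was expressed broadly, and at E14 it was carried by fewer genes. The number of members at 1 FPKM or more was 36 (CTL) and 32 (*Stat3* cKO) at E11, and 20 and 20 at E14. Of the 19 ligands, 12 and 9 reached that level at E11, and 4 did so in either E14 library. The matching share of all entries was not taken, so these counts do not show whether the difference is particular to the family. The plot of levels by gene shows the members whose mean over the libraries reached 1 FPKM, which were 31 of the 48, and ratios below were taken for these.

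**Figure D1:**
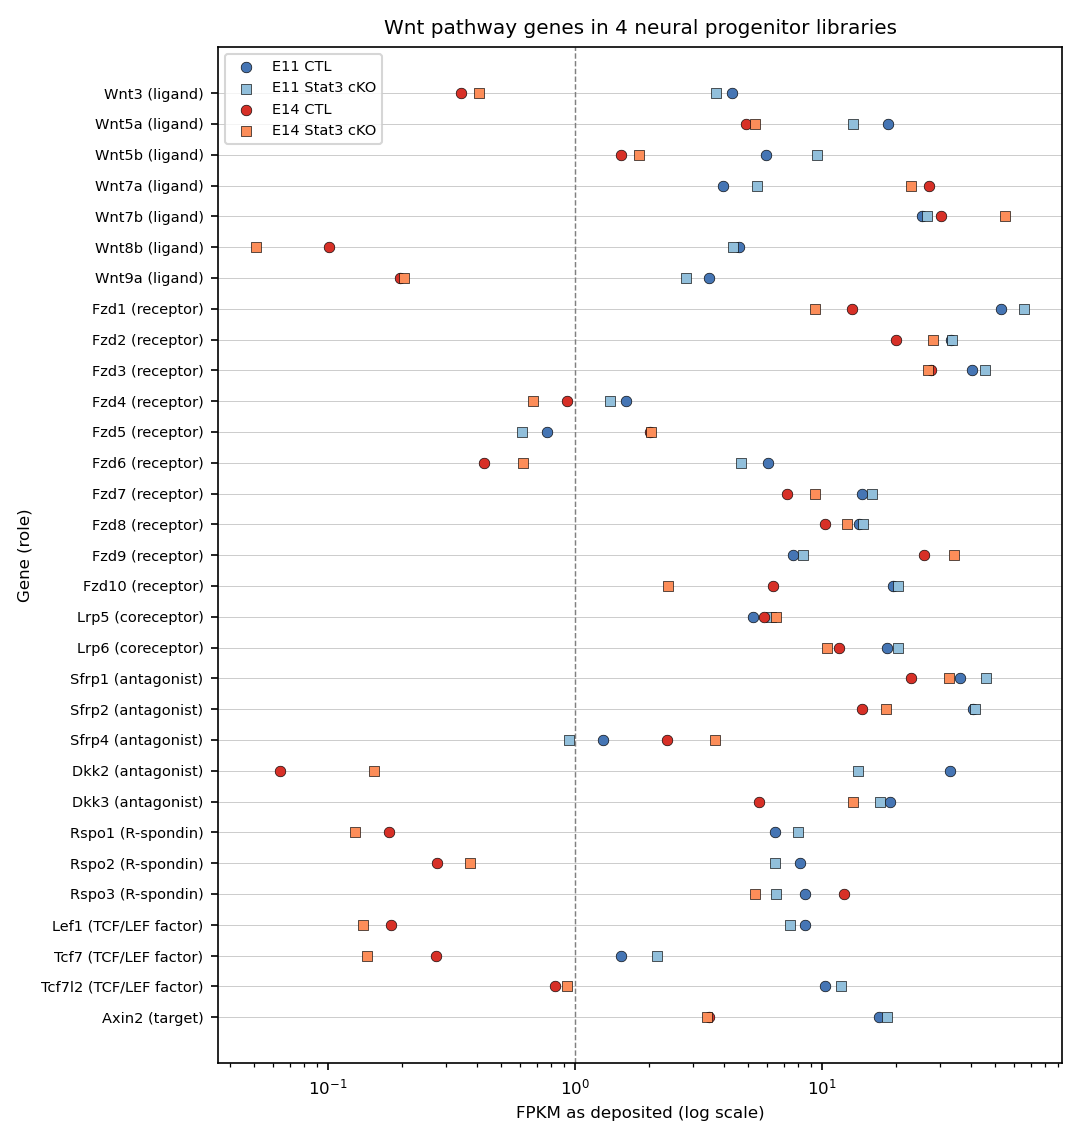
Level of each of the 31 Wnt pathway genes whose mean reached 1 FPKM, in FPKM on a log axis, with 1 point for each library and a dashed line at 1 FPKM. Genes such as *Dkk2*, *Lef1* and *Rspo1* lie above 5 FPKM in both E11 libraries and under 0.2 FPKM in both E14 libraries, while *Wnt7a*, *Fzd9* and *Fzd5* lie higher at E14.

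Between the CTL libraries, 18 of the 31 members were at least 2-fold lower at E14 than at E11 and 3 were at least 2-fold higher. Among all 12430 genes with a ratio in this comparison, 12.5% were lower and 14.6% higher by the same measure. The median log2 ratio was -1.61 for the members and 0.21 for all genes. With a minimum mean of 5 FPKM the members' median was -0.73, and 9 of 19 were lower, where the median of all genes was 0.32 and 7.47% were lower. Between the *Stat3* cKO libraries, 17 members were lower and 5 higher, where 11.7% of all genes were lower and 10.1% higher, with medians of -1.19 and 0.06. Upper-quartile scaling moved the median of all genes by -0.37 in CTL and -0.15 in *Stat3* cKO on the log2 scale. With that scaling, 22 members were lower and 3 higher in CTL (18% and 7.21% of all genes), and 18 were lower and 4 higher in *Stat3* cKO (13.7% and 8.03%). Part of these counts follows from the minimum mean: 11 of the 31 members were under 1 FPKM in both E14 libraries and passed through their E11 levels, and 1, *Fzd5*, passed through its E14 levels. Folds of genes under 1 FPKM at E14 also shrink with a pseudocount of 1 FPKM, in CTL to 8.11-fold for *Lef1*, 6.33-fold for *Rspo1* and 5.08-fold for *Wnt8b*. With that pseudocount *Fzd5*, *Fzd7* and *Tcf7* no longer reached 2-fold in CTL, and neither did *Fzd4* and *Fzd5* in *Stat3* cKO.

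The stage ratios of the 2 genotypes come from separate pairs of libraries. The *Stat3* cKO pair also differed at the sex-linked genes *Ddx3y* (0 and 25.1 FPKM) and *Xist* (39.7 and 0.037 FPKM), whose part was not tested. Of the 31 members, 24 were lower at E14 in both genotypes and 6 were higher in both, by any amount, and 16 were at least 2-fold lower in both. Of the 12419 genes with a ratio in both genotypes, 34.4% were lower in both, 48.3% higher in both and 9.54% at least 2-fold lower in both. Across the 31 genes, which are not independent replicates, the log2 ratios had a Pearson r of 0.945 and a Spearman rho of 0.960, where all 12419 genes gave 0.909 and 0.836. *Fzd7* and *Dkk3* were at least 2-fold lower in CTL alone and *Fzd4* in *Stat3* cKO alone. In 24 of the 31 both E14 libraries were below both E11 libraries and in 5 both were above, against 32.1% and 45.7% of all genes, and the stages overlapped for *Rspo3* and *Lrp5*. Part of these counts and of this agreement follows from the minimum mean, since 11 of the 31 members passed through their E11 levels. A difference between genotypes in these stage ratios was not tested.

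**Figure D2:**
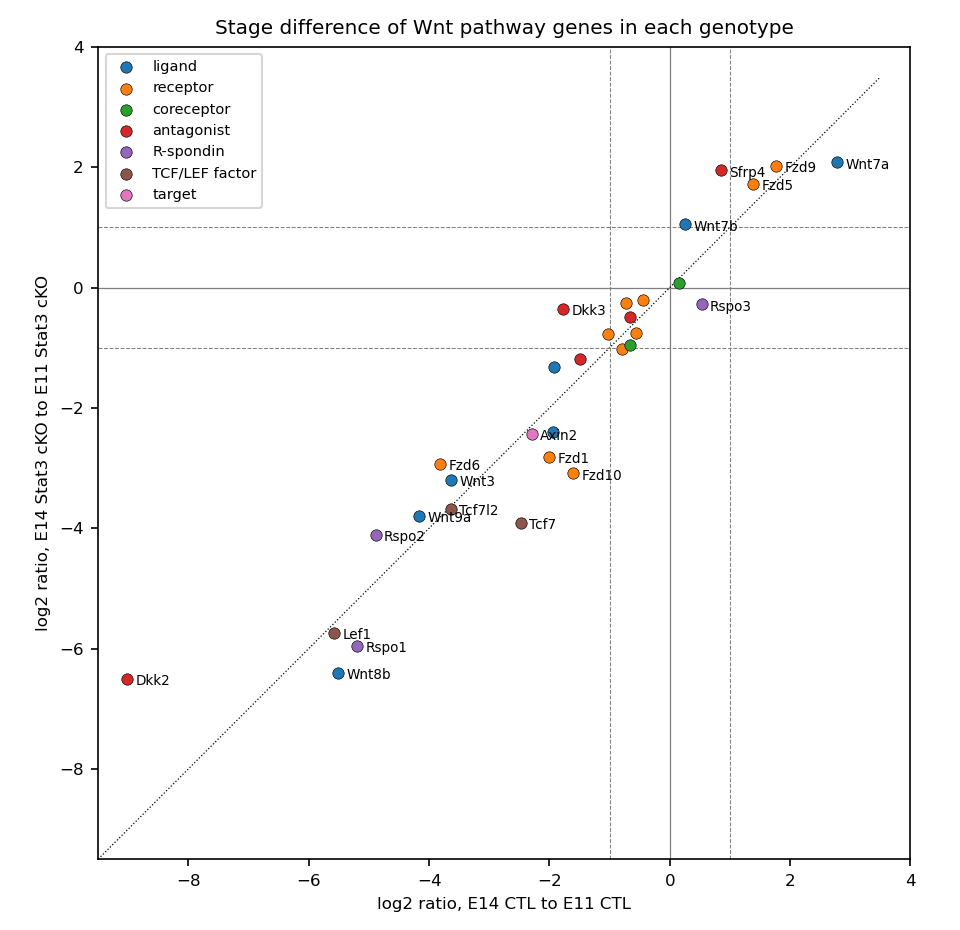
Log2 ratio of E14 to E11 in CTL (horizontal axis) and in *Stat3* cKO (vertical axis) for the 31 Wnt pathway genes, coloured by role, with dashed lines at a 2-fold difference and a dotted line of equal ratios. *Dkk2* lies farthest to the left at -9.02 and -6.51, and *Wnt7a* farthest to the right at 2.78 and 2.08.

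Among the ligands, the main difference between stages was in the makeup of the family. The summed level of the 19 ligands was 76.8 FPKM (CTL) and 72.3 (*Stat3* cKO) at E11, and 65.4 and 87.3 at E14. *Wnt7a* and *Wnt7b*, close relatives that are known in the developing brain for acting on the growth of its blood vessels, made up 38.3% of that sum (CTL) and 44.4% (*Stat3* cKO) at E11, and 87.9% and 89.6% at E14. The other 17 ligands together stood at 47.4 and 40.2 FPKM in the E11 libraries and at 7.94 and 9.08 FPKM in the E14 libraries.

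*Wnt7b* was the ligand with the highest level in every library, at 25.4 FPKM (CTL) and 26.6 (*Stat3* cKO) at E11, and 30.2 and 55.2 at E14. The E14 *Stat3* cKO library stood above the other three, which were close together, so the stage ratio was 1.19 in CTL, which turned direction with upper-quartile scaling, and 2.07 in *Stat3* cKO, which then no longer reached 2-fold. *Wnt7a* was at 3.97, 5.46, 27.2 and 23 FPKM in the same order of libraries, with no overlap between the stages and a stage ratio of 6.85 (CTL) and 4.22 (*Stat3* cKO). It was the only one of the 7 ligands with a ratio that was at least 2-fold higher at E14 in CTL.

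*Wnt5a* and *Wnt5b*, which are best known for the beta-catenin-independent branch, followed *Wnt7b* at E11. *Wnt5a* was at 18.5, 13.3, 4.9 and 5.36 FPKM, 3.78-fold lower at E14 in CTL and 2.49-fold in *Stat3* cKO. *Wnt5b* was at 5.91, 9.57, 1.54 and 1.81 FPKM, 3.84-fold and 5.27-fold lower. Both remained above 1 FPKM at E14, which apart from *Wnt7a* and *Wnt7b* no other ligand did.

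*Wnt3*, *Wnt8b* and *Wnt9a* were at a few FPKM at E11 and far below 1 at E14. *Wnt8b*, a ligand of the cortical hem and the early forebrain, was at 4.6 FPKM (CTL) and 4.35 (*Stat3* cKO) at E11, and 0.101 and 0.0513 at E14, 45.5-fold and 84.7-fold lower at E14. *Wnt9a* was at 3.5, 2.81, 0.196 and 0.203 FPKM, 17.9-fold and 13.9-fold lower. *Wnt3*, a canonical ligand, was at 4.3, 3.73, 0.344 and 0.409 FPKM, 12.5-fold and 9.13-fold lower. In each of these 3 genes both E11 libraries were above both E14 libraries by a wide margin.

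The other 12 ligands had a mean under 1 FPKM. *Wnt1*, which organizes the midbrain and hindbrain boundary, reached 2.03 FPKM and *Wnt3a*, a ligand of the cortical hem, 2.01, each in E11 CTL. *Wnt11* reached 1.77 FPKM, *Wnt2b* 1.31 and *Wnt4* 1.17, again in E11 CTL, and these 5 ligands were at 0.331 FPKM or less in the E14 libraries. The highest values of the remaining 7 were 0.903 FPKM for *Wnt6*, 0.587 for *Wnt2*, 0.533 for *Wnt16*, 0.219 for *Wnt9b*, 0.187 for *Wnt10a*, 0.169 for *Wnt10b* and 0.044 for *Wnt8a*. These low levels are given without ratios, since the number of fragments behind them is unknown.

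By the positions in the deposited tables, 8 ligands form 4 pairs of neighbours less than 100000 bases apart. *Wnt6* and *Wnt10a* on chromosome 1 are 6698 bases apart, *Wnt1* and *Wnt10b* on chromosome 15 are 11705, *Wnt3a* and *Wnt9a* on chromosome 11 are 16177, and *Wnt3* and *Wnt9b* on chromosome 11 are 24352. In E11 CTL the members of a pair stood at 0.903 and 0.187 FPKM, 2.03 and 0.169, 2.01 and 3.5, and 4.3 and 0.219, so 1 member was under 0.25 FPKM in 3 of the 4 pairs. In E14 CTL all 8 were at 0.344 FPKM or less.

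**Figure D3:**
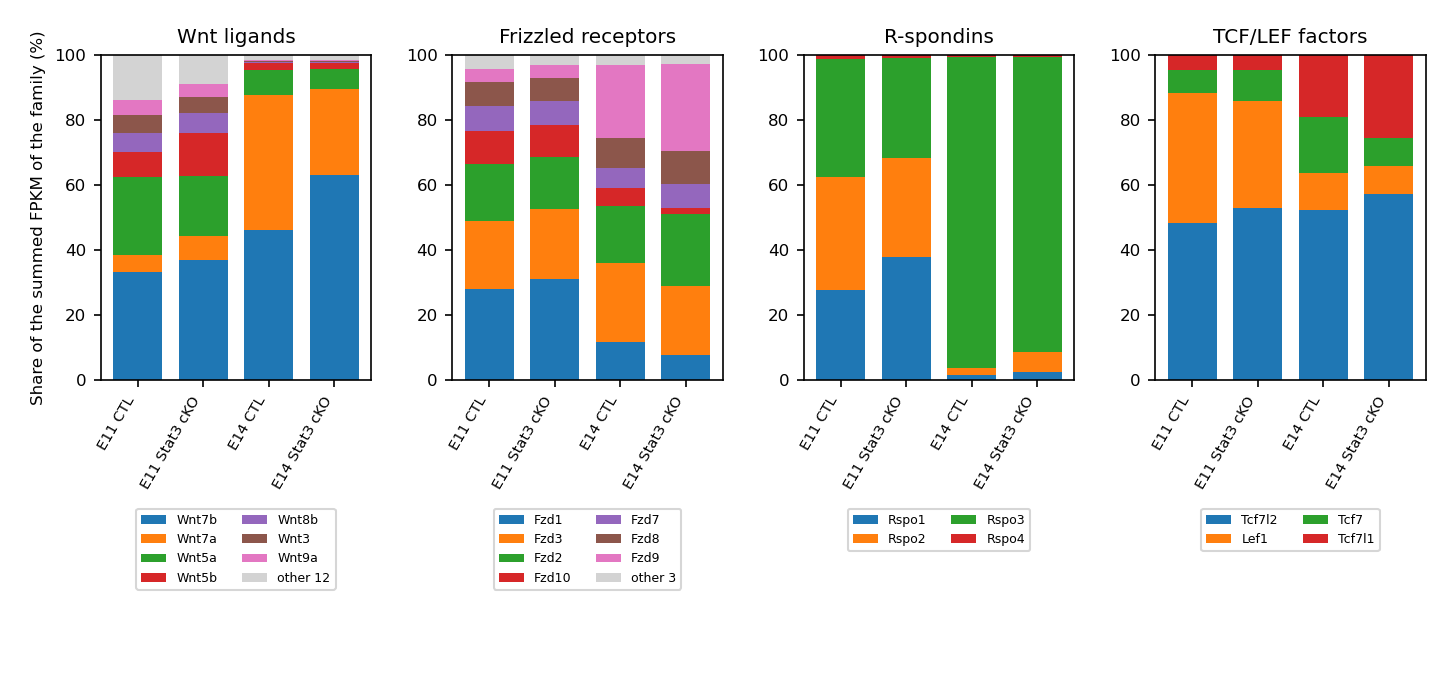
Share of each gene in the summed FPKM of its family (vertical axis, percent) in the 4 libraries (horizontal axis), for ligands, frizzled receptors, R-spondins and TCF/LEF factors. *Wnt7a* and *Wnt7b* take 87.9% of the ligand total in E14 CTL against 38.3% in E11 CTL, *Fzd9* takes 22.8% of the receptor total against 3.98%, and *Rspo3* takes 96% of the R-spondin total against 36.5%.

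All 10 frizzled receptors had a mean of 1 FPKM or more, and their summed level was 191 FPKM (CTL) and 211 (*Stat3* cKO) at E11, and 114 and 126 at E14. *Fzd1*, *Fzd3* and *Fzd2* led at E11, and *Fzd9* took a place among the first 3 at E14. In CTL, 4 receptors were at least 2-fold lower at E14 (*Fzd1*, *Fzd6*, *Fzd7* and *Fzd10*) and 2 were at least 2-fold higher (*Fzd5* and *Fzd9*).

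*Fzd1* was at 53 FPKM (CTL) and 65.5 (*Stat3* cKO) at E11, and 13.2 and 9.36 at E14, 4-fold lower at E14 in CTL and 7-fold in *Stat3* cKO. *Fzd10* was at 19.4, 20.3, 6.35 and 2.38 FPKM, 3.05-fold and 8.54-fold lower. *Fzd6*, which acts in planar cell polarity, was at 6.05, 4.7, 0.429 and 0.617 FPKM, 14.1-fold and 7.61-fold lower. For all 3 genes the stages did not overlap.

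*Fzd9* stood the other way, at 7.6, 8.39, 25.9 and 34.1 FPKM in the same order, 3.41-fold higher at E14 in CTL and 4.06-fold in *Stat3* cKO. *Fzd5*, known for its part in the eye and the early forebrain, was at 0.768, 0.612, 2.02 and 2.03 FPKM, 2.63-fold and 3.32-fold higher, or 1.71-fold and 1.88-fold with a pseudocount of 1 FPKM. Both genes had higher values in either E14 library than in either E11 library.

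The remaining receptors differed less. *Fzd7* was at 14.5, 16, 7.18 and 9.38 FPKM, 2.03-fold and 1.71-fold lower at E14, and *Fzd4*, which also binds the non-Wnt ligand norrin, was at 1.61, 1.38, 0.931 and 0.678 FPKM, 1.73-fold and 2.03-fold lower. *Fzd2* was at 33.3, 33.6, 20 and 28.2 FPKM and *Fzd3*, which guides axons, at 40.5, 45.5, 27.6 and 26.9 FPKM. *Fzd8* was at 14.1, 14.6, 10.3 and 12.6 FPKM. These 5 receptors were lower in either E14 library than in either E11 library, by less than 2-fold for *Fzd2*, *Fzd3* and *Fzd8*. With upper-quartile scaling *Fzd2* and *Fzd4* also reached 2-fold in CTL.

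Both coreceptors stayed within 2-fold between the stages. *Lrp6* was at 18.4, 20.3, 11.7 and 10.5 FPKM, 1.58-fold lower at E14 in CTL and 1.94-fold in *Stat3* cKO, and with upper-quartile scaling it reached 2-fold in both. *Lrp5* was at 5.26, 6.19, 5.84 and 6.52 FPKM, with stage ratios of 1.11 and 1.05 whose direction turned with that scaling.

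The secreted antagonists summed to 132 FPKM (CTL) and 121 (*Stat3* cKO) at E11, and 45.9 and 68.9 at E14. *Dkk2*, which can act on *Lrp6* as an antagonist or a weak agonist depending on the cell, had the largest stage difference of all members. It was at 33.1 FPKM (CTL) and 14 (*Stat3* cKO) at E11, and 0.0636 and 0.154 at E14, 520-fold lower at E14 in CTL and 91.1-fold in *Stat3* cKO. These folds rest on E14 levels near 0, and with a pseudocount of 1 FPKM they were 32.1-fold and 13-fold. Only 3 of the 12430 genes with a ratio had a lower one between the CTL stages as deposited. *Dkk3*, a divergent Dickkopf that does not block *Lrp6* as *Dkk1* does, was at 18.9, 17.1, 5.55 and 13.4 FPKM, 3.4-fold lower at E14 in CTL and 1.28-fold lower in *Stat3* cKO. *Dkk1*, the classical inhibitor of *Lrp6*, reached 1.29 FPKM in E11 CTL and 0.0742 at most at E14, and *Dkk4* reached 0.0728 FPKM and was listed at 0 in both E14 libraries.

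*Sfrp1* and *Sfrp2*, which bind Wnt ligands outside the cell, were the antagonists with the highest levels at E14. *Sfrp1* was at 36.3, 46, 22.9 and 32.8 FPKM, 1.58-fold and 1.4-fold lower at E14, and reached 2-fold in CTL with upper-quartile scaling. *Sfrp2* was at 40.8, 41.5, 14.5 and 18.2 FPKM, 2.81-fold and 2.28-fold lower. Together they made up 58.4% and 72.6% of the antagonist total at E11, and 81.6% and 74% at E14. *Sfrp4* was higher at E14, at 1.3, 0.946, 2.35 and 3.67 FPKM, with a stage ratio of 1.8 (CTL) and 3.87 (*Stat3* cKO), and *Sfrp5* reached 0.605 FPKM, in E14 *Stat3* cKO.

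Of the R-spondins, which bind Lgr receptors and the ubiquitin ligases that remove frizzleds, 3 were expressed at E11 and 1 at E14. *Rspo1* was at 6.45 FPKM (CTL) and 7.97 (*Stat3* cKO) at E11, and 0.176 and 0.128 at E14, 36.6-fold and 62.1-fold lower at E14. *Rspo2* was at 8.15, 6.47, 0.276 and 0.374 FPKM, 29.5-fold and 17.3-fold lower. *Rspo3* did not share this pattern and was at 8.57, 6.52, 12.3 and 5.35 FPKM, with a stage ratio of 1.44 (CTL) and 0.821 (*Stat3* cKO). *Rspo4* reached 0.288 FPKM.

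The TCF/LEF factors, the nuclear partners of beta-catenin, were all lower at E14. Their summed level was 21.4 and 22.5 FPKM in the E11 libraries and 1.59 and 1.62 FPKM in the E14 libraries. *Lef1* was at 8.56 FPKM (CTL) and 7.41 (*Stat3* cKO) at E11, and 0.179 and 0.139 at E14, 47.8-fold and 53.5-fold lower. *Tcf7l2* was at 10.3, 11.9, 0.832 and 0.929 FPKM, 12.4-fold and 12.8-fold lower, and remained the highest of the 4 at E14. *Tcf7* was at 1.53, 2.15, 0.273 and 0.144 FPKM, 5.59-fold and 15-fold lower, and *Tcf7l1*, best known as a repressor, reached 1.05 FPKM at E11 and 0.411 at E14. *Axin2*, the target most often read as a measure of canonical signalling, was at 17, 18.3, 3.47 and 3.41 FPKM, 4.89-fold lower at E14 in CTL and 5.38-fold in *Stat3* cKO.

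Markers of other cells and regions differed between the stages along with these genes, as the plot of summed marker levels shows. The 9 markers of meninges and mesenchyme, *Col3a1* and *Foxc1* among them, all reached 1 FPKM at E11 and summed to 1441 FPKM in E11 CTL and 1305 in E11 *Stat3* cKO. At E14 they summed to 16.6 and 10.8 FPKM, with 3 and 4 of the 9 at 1 FPKM or more and none at 0. The 10 midbrain and hindbrain markers summed to 11.6 and 10.5 FPKM at E11, with 2 at 1 FPKM or more, and to 0.859 and 0.711 FPKM at E14, with none. *Hoxb2* was at 0 in E11 *Stat3* cKO and *Fgf8* in E14 CTL. Of the 9 markers of the cortical hem and choroid plexus, 7 and 6 reached 1 FPKM at E11 and 3 at E14, yet their sum was 62.8 and 65.7 FPKM at E11 and 125 and 90.5 at E14, because *Ttr* alone stood at 118 and 82.2 FPKM at E14.

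**Figure D4:**
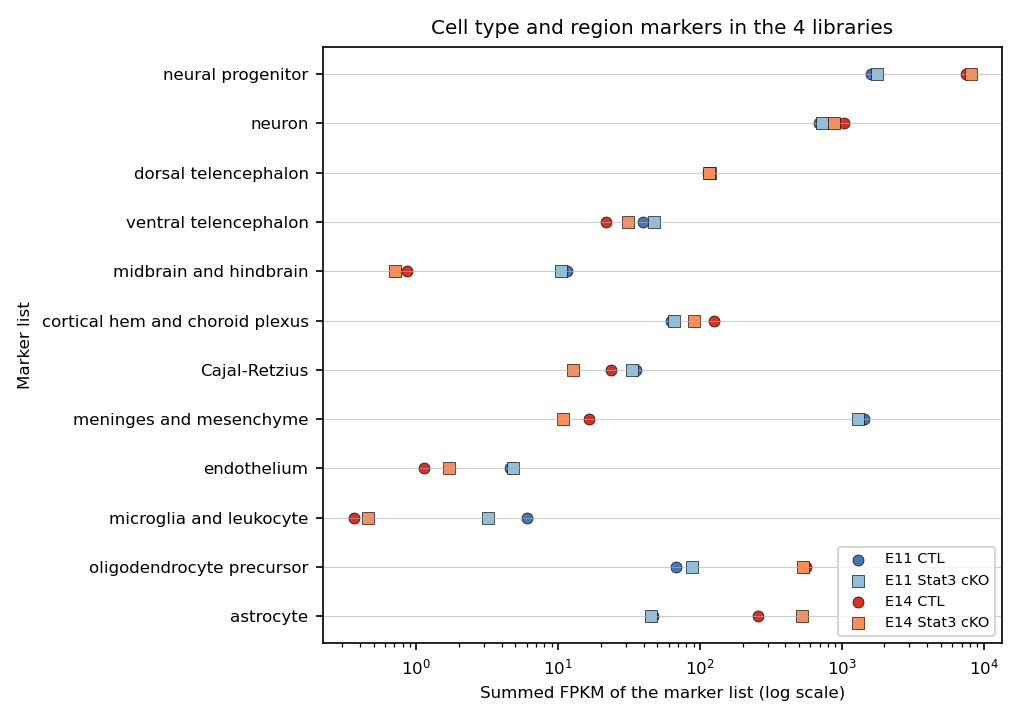
Summed FPKM of each marker list on a log axis, with 1 point for each library. The sum for meninges and mesenchyme is 1441 and 1305 FPKM in the E11 libraries and 16.6 and 10.8 FPKM in the E14 libraries, while that for the dorsal telencephalon lies between 113 and 117 FPKM in all 4.

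The 7 dorsal telencephalic markers summed to 115, 117, 113 and 115 FPKM, but single markers differed: *Emx1* was 2.39-fold and 3.26-fold higher at E14, and *Neurog2* was at 40.8, 43.8, 13 and 20.9 FPKM. At least 2-fold, 1 was higher and 1 lower in CTL, and 1 was higher and 3 lower in *Stat3* cKO. The Cajal-Retzius markers (5) summed to 35.4 and 33.1 FPKM at E11 and to 23.4 and 12.7 at E14. Of these, *Lhx1* and *Lhx5* were lower at E14 in both genotypes. *Reln*, *Calb2* and *Trp73* were lower at E14 in *Stat3* cKO only, with CTL stage ratios of 1.08, 1.21 and 1.56. The endothelial markers (6) summed to 4.58 and 4.84 FPKM at E11, then to 1.14 and 1.69 FPKM. The microglial and leukocyte markers (6) summed to 5.98 and 3.22 FPKM at E11 and 0.363 and 0.457 at E14, where *Aif1* was at 0 in CTL. The oligodendrocyte precursor markers (5) summed to 67.4 and 87.8 FPKM at E11 and to 560 and 532 at E14, where most of the sum came from *Olig1* and *Olig2*, while *Pdgfra* was lower at E14 in both genotypes (53.1, 68.7, 35.9 and 61.2 FPKM). The 10 neural progenitor markers summed to 1606 and 1767 FPKM at E11 and to 7523 and 8167 at E14, most of it there from *Fabp7* (5245 and 5929 FPKM). The 6 astrocyte markers summed to 46.4 and 45 FPKM at E11 and to 258 and 523 at E14, and the 8 ventral telencephalic markers to 39.7, 47.1, 21.6 and 31.1 FPKM. In the ventral list *Lhx6* alone was higher at E14, at 1.67, 0.572, 4.75 and 6.88 FPKM. The part of any of these cell types or regions in the stage ratios of the Wnt genes was not tested.

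Between genotypes the Wnt genes differed far less than between stages. At E14, 2 of the 31 members, *Dkk2* and *Dkk3*, had a level in *Stat3* cKO at least 2-fold above that in CTL, and 2, *Fzd10* and *Rspo3*, at least 2-fold below, where 1.85% of all 12430 genes were higher and 1.69% lower. The other 27 were within 2-fold. The median log2 ratio of the members was 0.16, against -0.08 for all genes, a median that upper-quartile scaling moved by 0.15. With that scaling *Wnt7b* also reached 2-fold, which gave 3 members higher and 2 lower (2.74% and 1.1% of all genes), and *Fzd3* and *Axin2* turned direction.

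*Dkk3* was at 5.55 FPKM in the CTL and 13.4 FPKM in the *Stat3* cKO library of E14, a ratio of 2.42. The E14 *Stat3* cKO value was nearer to the E11 values of 18.9 and 17.1 FPKM than to that of E14 CTL. *Rspo3* was at 12.3 FPKM in the CTL and 5.35 FPKM in the *Stat3* cKO library of E14, 2.31-fold lower, and E14 CTL held its highest value of the 4 libraries. *Fzd10* was at 6.35 and 2.38 FPKM, 2.67-fold lower, and E14 *Stat3* cKO held its lowest value. At E11 the genotype ratios of these 3 genes were 0.908 for *Dkk3*, 0.76 for *Rspo3* and 1.05 for *Fzd10*.

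*Dkk2* had an E14 genotype ratio of 2.42 as well, but between 0.0636 and 0.154 FPKM, and with a pseudocount of 1 FPKM its log2 ratio was 0.12 in place of 1.28. *Wnt7b* stood next below the threshold, at 30.2 FPKM in the CTL and 55.2 FPKM in the *Stat3* cKO library of E14, a ratio of 1.83. Just below 2-fold in the other direction were *Wnt8b*, with a ratio of 0.507 between 0.101 and 0.0513 FPKM, and *Tcf7*, with 0.526 between 0.273 and 0.144 FPKM. Of the other antagonists, *Sfrp4* had an E14 genotype ratio of 1.56, *Sfrp1* of 1.43 and *Sfrp2* of 1.26, and *Dkk1*, under the minimum mean, was at 0.0742 and 0.0556 FPKM. A ratio above 1 was found in 39.9% of all genes as deposited and in 59.7% with upper-quartile scaling. *Axin2* was at 3.47 FPKM in the CTL and 3.41 FPKM in the *Stat3* cKO library of E14, a ratio of 0.983.

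**Figure D5:**
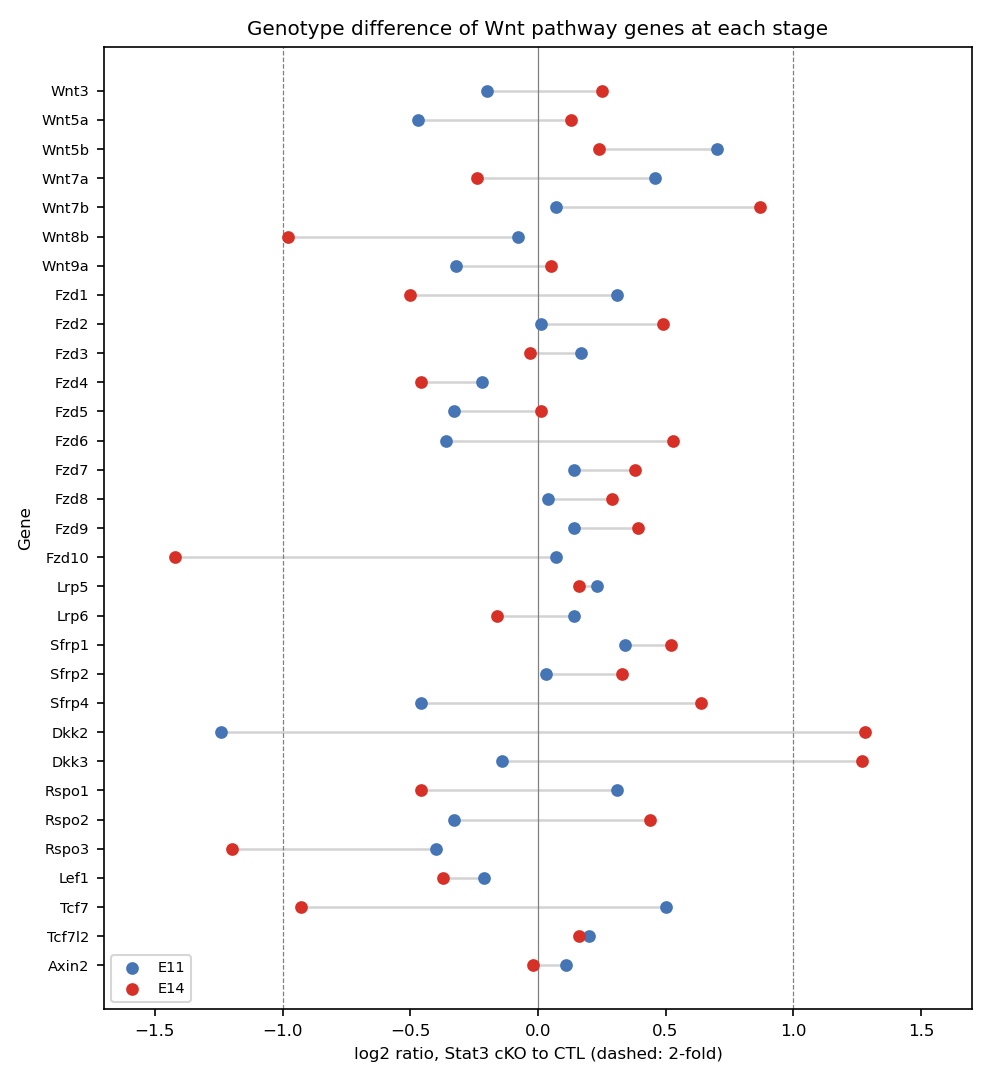
Log2 ratio of *Stat3* cKO to CTL (horizontal axis) at E11 and E14 for the 31 Wnt pathway genes (vertical axis), with dashed lines at a 2-fold difference. At E14, *Dkk2* (1.28) and *Dkk3* (1.27) lie beyond the right line and *Fzd10* (-1.42) and *Rspo3* (-1.20) beyond the left one, and at E11 only *Dkk2* (-1.24) lies beyond either.

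Marker lists of other cell types and regions also differed between the E14 genotypes. The 6 astrocyte markers summed to 258 FPKM in the CTL and 523 FPKM in the *Stat3* cKO library of E14, with 5 of 6 higher in *Stat3* cKO, most of the sum from *Mfge8* (169 and 370 FPKM) and *Gfap* lower (0.901 and 0.186 FPKM). In either library 5 reached 1 FPKM and none was at 0. At E11 the list summed to 46.4 and 45 FPKM. The 8 ventral telencephalic markers summed to 21.6 and 31.1 FPKM at E14 (39.7 and 47.1 at E11). The Cajal-Retzius markers stood at 23.4 and 12.7 FPKM at E14, where only *Lhx5* was higher in *Stat3* cKO (ratio 1.77). Those of meninges and mesenchyme stood at 16.6 and 10.8 FPKM, where only *Pdgfrb* (ratio 2.54) and *Col1a1* (1.06) were higher. The 8 neuronal markers summed to 1043 and 888 FPKM (696 and 725 at E11). Their part, and that of the sex-linked difference, in the E14 genotype ratios was not tested.

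At E11, none of the 31 members was at least 2-fold higher in *Stat3* cKO and 1, *Dkk2*, was at least 2-fold lower, where 0.209% of all genes were higher and 1.12% lower. Its level was 33.1 FPKM in CTL and 14 FPKM in *Stat3* cKO, 2.36-fold lower. The 9 meninges and mesenchyme markers there summed to 1441 and 1305 FPKM, but their median log2 ratio was 0.06 and none was 2-fold apart. Single markers went either way, with *Dcn* at 141 and 78.8 FPKM and *Foxc1* at 67.1 and 80.6. The microglia and leukocyte markers summed to 5.98 and 3.22 FPKM. Their part in the *Dkk2* difference was not tested. The median log2 ratio was 0.04 for the members and 0.06 for all genes. *Wnt5b*, at 5.91 and 9.57 FPKM, had the highest ratio, 1.62. *Wnt7b*, *Fzd2*, *Fzd8* and *Sfrp2* had ratios from 1.01 to 1.05 that turned direction with upper-quartile scaling. The E11 libraries also hardly differed at *Stat3* itself, with a ratio of 0.911.

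A list of 94 other genes of the pathway places these values in context. Of these, 91 were in the tables and 78 passed the same minimum mean of 1 FPKM. Between the CTL stages 29 of the 78 were at least 2-fold lower at E14 and 2 were higher, and between the *Stat3* cKO stages 28 were lower and 2 higher, where the shares of all genes were 12.5% and 14.6% in CTL while those in *Stat3* cKO were 11.7% and 10.1%. After upper-quartile scaling 38 were lower and 1 higher in CTL (18% and 7.21% of all genes), and in *Stat3* cKO 34 were lower and 2 higher (13.7% and 8.03%). Part of these counts follows from the minimum mean, since 8 of the 78, all of them among the lower genes in CTL, were under 1 FPKM in both E14 libraries and passed through their E11 levels. The lower genes in CTL were 6 of 9 other antagonists, 6 of 9 other receptors and their regulators, 5 of 12 planar polarity genes, 4 of 7 other targets, 4 of 26 cytoplasmic components, 3 of 13 nuclear factors and 1 of 2 genes of ligand secretion.

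The 10 largest stage differences in CTL were found among the other antagonists, the other receptors and the other targets. *Frzb*, a relative of the Sfrp antagonists, was at 23 FPKM (CTL) and 25.8 (*Stat3* cKO) at E11, and 0.237 and 0.509 at E14, 96.8-fold lower in CTL and 50.7-fold in *Stat3* cKO. *Twist1*, a mesenchymal transcription factor that is also in the list of meninges markers, was at 42, 35.2, 0.45 and 0.0353 FPKM, 93.4-fold lower in CTL and 998-fold in *Stat3* cKO. *Gpr124*, which with *Reck* makes endothelial cells respond to *Wnt7a* and *Wnt7b*, was at 27.3, 28.5, 0.584 and 0.435 FPKM, 46.7-fold and 65.5-fold lower, and *Reck* was 15.1-fold and 10.4-fold lower. The target *Sp5* was at 5.4, 4.72, 0.196 and 0.0652 FPKM, 27.5-fold lower in CTL and 72.4-fold in *Stat3* cKO, and the ligand-binding antagonist *Wif1* at 3.06, 1.51, 0.137 and 0.15 FPKM, 22.4-fold and 10.1-fold lower. The *Wnt5a* receptor *Ror1* was at 6.36, 7.4, 0.298 and 0.218 FPKM, 21.4-fold and 33.9-fold lower, and *Ror2* at 12.4, 17.2, 1.94 and 1.47 FPKM, 6.37-fold and 11.7-fold lower. Folds that rest on levels this far under 1 FPKM are uncertain. *Igfbp4*, a binding protein that can block Wnt receptors, was 7.97-fold and 12.9-fold lower, and *Lgr4*, an R-spondin receptor, 7.17-fold and 9.4-fold lower. *Ctnnb1*, which encodes beta-catenin, was at 496, 567, 525 and 528 FPKM, a stage ratio of 1.06 in CTL.

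Between the E14 genotypes, 4 of the 78 reached 2-fold in favour of *Stat3* cKO and 6 in favour of CTL, beside 1.85% and 1.69% of all genes. With upper-quartile scaling *Jag1* and *Dact1* no longer reached 2-fold, which left 4 in either direction, beside 2.74% of all genes in favour of *Stat3* cKO and 1.1% in favour of CTL. The higher genes were *Apcdd1*, a membrane-bound inhibitor, at 11.4 and 31.5 FPKM, a ratio of 2.78, the planar polarity cadherin *Celsr1* at 4.4 and 10 FPKM, *Draxin* at 8.47 and 17.6 FPKM and *Frzb* at 0.237 and 0.509 FPKM. *Ccnd1*, which encodes cyclin D1, was the largest difference at a high level, with 101 FPKM (CTL) and 120 (*Stat3* cKO) at E11, and 210 and 34.2 at E14. It was 6.14-fold lower in *Stat3* cKO at E14, while in CTL its E14 level was 2.07-fold that of E11. *Jag1*, a Notch ligand, was at 8.57 and 4.24 FPKM in E14 CTL and E14 *Stat3* cKO, and *Dact1* at 34.8 and 16.9. The others were *Shisa3* at 1.49 and 0.441 FPKM, *Sp5* at 0.196 and 0.0652 and *Twist1* at 0.45 and 0.0353. At E11 *Wif1* alone was at least 2-fold lower, at 3.06 and 1.51 FPKM, and none was higher, a count near the 1.12% and 0.209% of all genes. Among the 78, *Myc* was the only gene besides *Ccnd1* whose CTL level was at least 2-fold higher at the later stage, at 1.37 and 5.85 FPKM, and with upper-quartile scaling *Ccnd1* no longer reached 2-fold.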

How the data were processed

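The data are RNA-seq of neural progenitors in culture, in 4 libraries that the sample labels place in 4 groups of 1. The authors checked reads with FastQC, ran the TopHat and Cufflinks workflow and deposited 1 FPKM value per gene and library. Their processing notes to GEO name Bowtie 0.12.2 and the builds mm8 and mm9, without saying which served where, and the annotation is not given in the sources used here. Positions in the tables therefore served only for distances between genes.

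FPKM values were used as deposited, in plain ratios without a pseudocount, for genes whose mean over the libraries reached 1 FPKM (12449 of 21091 entries). No ratio was taken where a value was 0, and a ratio of 2 counted as higher or lower. With 1 library per group no test was made. FPKM gives no read counts, so depth is unknown, and a relative depth was read from the smallest values (under 0.08 FPKM) that single fragments leave. The steps were tested on simulated data. The members, the marker lists and the list of other pathway genes were chosen with earlier results of these data known. Each member is named once under its role. Of the other pathway genes, those at least 2-fold apart between genotypes and the 10 with the largest stage ratio in CTL are named. *Ctnnb1* and *Myc*, outside this rule, were chosen after their values were seen.

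Promoter windows came from RefSeq gene starts on GRCm38.p6, matched by symbol. Alternatives were a pseudocount of 1 FPKM, the median of all genes set to 0, upper-quartile scaling, a minimum mean of 5 FPKM or none, and a threshold of 1.5-fold. Python 3.11.15, numpy 2.4.6, pandas 2.3.3 and matplotlib 3.10.9 were used.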

Additional observations from a re-analysis of the deposited data

Results flagged for a closer look

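*Dkk2* stood out because its genotype difference had opposite directions at the 2 stages. Its level in *Stat3* cKO was 0.424 times that in CTL at E11, between 33.1 and 14 FPKM, and 2.42 times that in CTL at E14, between 0.0636 and 0.154 FPKM. The E14 levels are far under 1 FPKM, and the number of fragments behind them is unknown. It was the only 1 of the 31 members at least 1.5-fold apart in opposite directions, as were 0.854% of all genes, and the difference between the stages was not tested. With a pseudocount of 1 FPKM its E14 log2 ratio was 0.12 in place of 1.28, so it was then no longer 1.5-fold apart at E14.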

How the results depend on the processing

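No called member turned direction under the alternatives. The E11 genotype median of 0.04 did, to -0.01 with ratios centred on the median of all genes, -0.02 with upper-quartile scaling and -0.21 with no minimum mean. A threshold of 1.5-fold gave 1 member higher at E11 (2.18% of all genes), and 4 higher and 4 lower at E14 (5.82% and 7.67%). With no minimum mean, which adds members of low level, 1 was higher and 6 lower at E11 (2.3% and 9.11% of all genes), 6 were higher at E14 (8.21%), 33 were lower between CTL stages (25.3%), and 28 were lower and 8 higher between *Stat3* cKO stages (17.4% and 11.8%). A minimum of 5 FPKM, which keeps 19 members, gave a CTL stage median of -0.73 with 9 lower (7.47%), and 7 lower and 3 higher in *Stat3* cKO (7.67% and 9.05%). A pseudocount of 1 FPKM, which shrinks ratios of low values, left 1 member higher at E14 (*Dkk3*, beside 0.916% of all genes) and moved 26 of 124 single ratios by over 1.5-fold. The E14 genotype median stayed between 0.07 and 0.31, the CTL stage median between -2.00 and -0.73, and the *Stat3* cKO stage median between -1.41 and -0.76. No paired analysis was possible because each group holds 1 library. Levels far under 1 FPKM limit every ratio that rests on them.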
